A study of Mus musculus with 9 samples.

Results

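The 8 genes described here encode the subunits of troponin, the calcium switch of striated muscle: Tnnt1, Tnnt2 and Tnnt3 for troponin T, Tnni1, Tnni2 and Tnni3 for troponin I, and Tnnc1 and Tnnc2 for troponin C. They were taken by annotated symbol from a table of array signals and are 8 of the 19505 genes tested. Rows were to be selected on brightness, the mean signal over all arrays, where a gene had several, but each troponin gene had 1 row, so that choice played no part. The RNA came from tissue bordering the scar, the peri-infarct region, in hearts of female SCID mice (a strain that lacks functional T and B cells), 80 to 100 days old. Every mouse, the controls included, had received an acute infarct by ligation of the left anterior descending coronary artery (LAD), and the tissue was taken 4 weeks later with the infarct core and the remote zone removed. The 3 groups differed in what was injected: saline alone, contracting heart muscle cells grown from induced pluripotent stem cells (iCM), or exosomes, the small vesicles shed by cells, precipitated out of iCM cultures (iCM-Ex). There were 3 arrays per group, labelled as biological replicates. Neither the species of the stem cells nor the number of mice behind 1 replicate is given in the sources used here.

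Troponin sits on the thin filament of the sarcomere together with actin and tropomyosin. Troponin C binds calcium, troponin I holds the filament inactive when calcium is low, and troponin T anchors the complex to tropomyosin. Vertebrates make the T and I subunits from separate genes in heart, slow skeletal fibres and fast skeletal fibres. Adult ventricle uses Tnnt2 and Tnni3 with Tnnc1, the troponin C gene that heart shares with slow fibres. Tnni1, the slow skeletal troponin I, is made in the fetal heart and replaced by Tnni3 around birth. Tnnt3, Tnni2 and Tnnc2 belong to fast skeletal muscle.

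Values are the authors' log2 signals, on which a difference of 1 is a doubling of signal. They say how a gene's own signal differed between arrays, and different genes are not set against each other, because probes differ in brightness. Differences between groups were tested with limma over all 19505 genes, with Benjamini-Hochberg adjustment over them all, and a gene is said to have risen or fallen only at an adjusted p of 0.05 or below. As a guide to background, the median signal of the negative control probe sets averaged 5.29 on the saline arrays, 5.31 on the iCM arrays and 4.86 on the iCM-Ex arrays. Cardiomyocyte markers were bright on every array. The mean over 10 of them was 16.32 to 17.30 on saline arrays, 16.09 to 17.76 on iCM arrays and 15.71 to 16.31 on iCM-Ex arrays, and none had a saline mean below the negative controls.

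One array stood apart for muscle genes. On iCM replicate 2 the mean of 8 fast skeletal muscle markers was 12.78, against 5.68 to 7.30 on the other 8 arrays, and 7 of the 8 had their highest value there. The exception was the light chain gene Myl1, which was bright on all arrays. The same array held the highest value of 7 of 8 fat markers, with a mean of 8.94 against 4.53 to 5.74 elsewhere. It also had the lowest control separation, the median of the positive minus that of the negative control probe sets, at 2.47 against 3.15 to 4.01 on the other arrays. Lung markers averaged 11.45 on iCM replicate 1 and 8.61 on iCM-Ex replicate 3, against 4.24 to 5.85 on the remaining arrays. Results that rest on iCM replicate 2 are therefore given with and without it.

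Several troponin genes lie next to each other in the mouse genome. In the RefSeq annotation Tnnt1 and Tnni3 are direct neighbours on chromosome 7. Tnni2 and Tnnt3 lie on the same chromosome with the protein-coding gene Lsp1 between them, and Tnni1 and Tnnt2 lie on chromosome 1 with Lad1 between them. Tnnc1 is on chromosome 14 and Tnnc2 on chromosome 2. The 250 bases upstream of the annotated start are printed for 3 genes, from RefSeq on GRCm38.p6: for Tnnt1, which rose in both treated groups, for its neighbour Tnni3, which did not pass the test, and for Tnnc2, which was high on iCM replicate 2. They lie at chr7:4515976-4516225, chr7:4522529-4522778 and chr2:164779735-164779984, each on the minus strand, and are written 5′ to 3′ along the gene. Capitals mark matches to the letters CANNTG (the E-box) or TATAAA on either strand.
Tnnt1: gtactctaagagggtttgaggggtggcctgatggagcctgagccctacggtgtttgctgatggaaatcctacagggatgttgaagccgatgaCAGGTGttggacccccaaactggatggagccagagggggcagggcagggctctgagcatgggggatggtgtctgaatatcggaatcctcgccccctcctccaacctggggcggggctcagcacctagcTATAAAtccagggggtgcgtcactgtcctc
Tnni3: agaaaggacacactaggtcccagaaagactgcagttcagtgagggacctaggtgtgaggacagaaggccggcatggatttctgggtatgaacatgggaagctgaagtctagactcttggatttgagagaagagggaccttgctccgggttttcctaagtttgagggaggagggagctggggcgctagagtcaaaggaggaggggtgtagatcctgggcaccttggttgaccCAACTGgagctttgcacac
Tnnc2: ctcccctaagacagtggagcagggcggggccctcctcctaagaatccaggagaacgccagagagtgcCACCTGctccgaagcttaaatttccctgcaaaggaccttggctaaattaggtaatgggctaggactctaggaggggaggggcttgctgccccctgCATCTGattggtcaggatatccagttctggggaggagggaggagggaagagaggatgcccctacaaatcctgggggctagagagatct
The Tnnt1 window held 1 CANNTG match, whose first base lay 158 bases upstream of the start, and 1 TATAAA match 30 bases upstream. In the Tnni3 window the CANNTG match lay 19 bases upstream, and no TATAAA was found. The Tnnc2 window had CANNTG matches at 183 and 88 bases upstream and no TATAAA. Of 32851 RefSeq windows of the same length, 66.2% held a CANNTG and 12.4% a TATAAA, so the first is common and the second less so. The letters CATTCC and GATAA, the MEF2 site and the CArG box, searched on both strands, had no match in these 3 windows. They occurred in 12.6%, 22.6%, 2.92% and 1.47% of all windows. Of the 8 troponin genes, 6 had an entry in the promoter table. Such a match describes the letters and shows neither binding nor use.

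Tnnt1, the slow skeletal troponin T gene, was the troponin gene that rose. Its log2 signal was 5.68, 5.84 and 6.10 on the saline arrays, 7.76, 9.25 and 8.32 on the iCM arrays and 8.36, 8.24 and 8.19 on the iCM-Ex arrays. All 6 arrays from treated hearts lay above all 3 saline arrays, as for 6.14% of all genes, with a gap of 1.66 between the highest saline and the lowest iCM value and of 2.10 between saline and iCM-Ex. The means and SDs of 3 arrays were 5.87 ± 0.21 for saline, 8.44 ± 0.75 for iCM and 8.27 ± 0.088 for iCM-Ex. The saline level lay near the negative controls, so the size of the rise from it is uncertain.

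For iCM against saline the Tnnt1 change was 2.57 ± 0.36 (SE), a 5.94-fold higher signal with a 95% interval of 3.39 to 10.4, at an adjusted p of 0.00854 by limma. Against saline the iCM-Ex change was 2.39 ± 0.36, or 5.26-fold with an interval of 3.002 to 9.21, at an adjusted p of 0.0374. Both comparisons use the same 3 saline arrays, so they are not independent of each other. Among all genes, 3.67% passed in either direction for iCM against saline and 0.349% for iCM-Ex against saline, while 1 of the 8 troponin genes did so in each. Higher calls alone made up 1.34% and 0.22% of all genes. Tnnt1 was 1 of 21 genes, 0.108% of those tested, that were called higher in both. Between iCM-Ex and iCM the Tnnt1 difference was −0.18 ± 0.36, with an interval of −0.98 to 0.63 and an adjusted p of 0.898 by limma.

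Leaving out 1 array at a time kept the Tnnt1 change above 2 log2 units in both comparisons with saline, while its adjusted p moved more. For iCM against saline the change stayed between 2.17 and 2.91 and the call held in 9 of 9 such fits, with adjusted p-values of 0.00599 to 0.0466 by limma. Without iCM replicate 2 the change was 2.17, at an adjusted p of 0.0187. For iCM-Ex against saline the change stayed between 2.30 and 2.51, yet the call held in 3 of 9 fits, with adjusted p-values of 0.0365 to 0.202. It was lost without saline replicate 1 (0.0964), saline replicate 2 (0.182), iCM replicate 3 (0.0557) or iCM-Ex replicates 1, 2 or 3 (0.0614, 0.1002 and 0.202 by limma). Without the 3 arrays on which lung, skeletal muscle or fat markers stood out, the changes were 2.45 for iCM and 2.43 for iCM-Ex, and neither passed (adjusted p of 0.0929 and 0.361 by limma). That fit has 1 iCM array left, which is assumed to vary like the arrays of the other groups. With control separation as a covariate the changes were 2.003 and 2.78, at adjusted p-values of 0.123 and 0.0574. Control separation itself was 3.26 to 3.56 on saline, 2.47 to 3.21 on iCM and 3.63 to 4.01 on iCM-Ex arrays, without overlap between the groups, and its part in the Tnnt1 difference cannot be told apart from that of the injection.

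**Figure D1:**
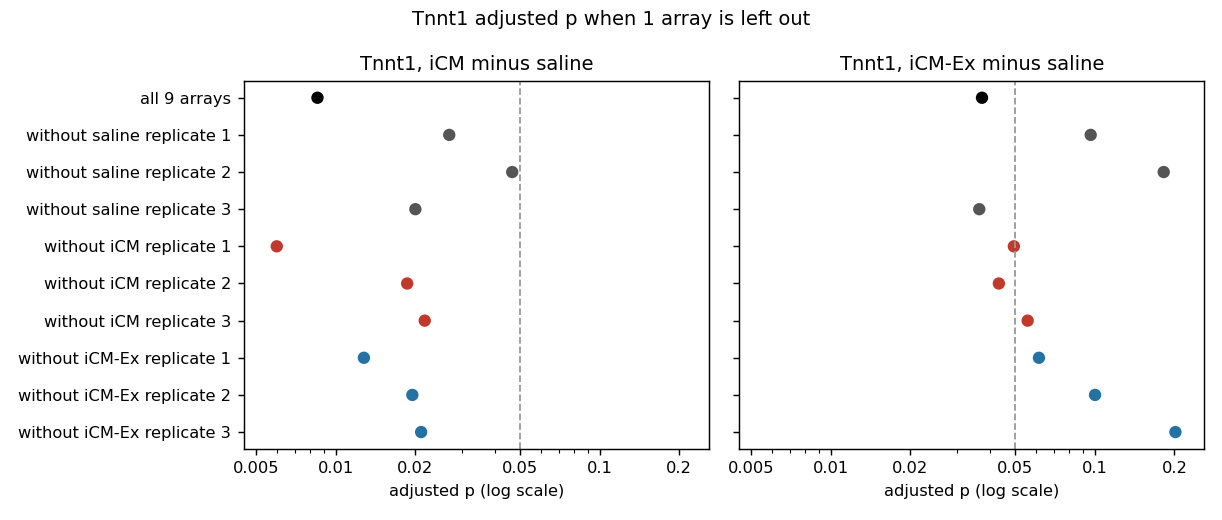
Adjusted p of Tnnt1 from limma (x axis, log scale) with all 9 arrays (top point) and with each array left out in turn (y axis), for iCM minus saline (left) and iCM-Ex minus saline (right). The dashed line is the threshold of 0.05. All points of the left panel lie below it, from 0.00599 to 0.0466, whereas 6 of the 9 fits with 1 array left out lie above it in the right panel.

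In a piece of tissue, fewer cells of a type and less RNA per cell cannot be told apart, and markers of several cell types differed between the groups in direction. For iCM against saline 8 of 8 fibroblast markers were lower, with a median of −1.30 and of −1.07 without iCM replicate 2. Between iCM-Ex and iCM all 8 were higher, by a median of 1.86 (1.74 without iCM replicate 2). Among the 8, Dcn had each array's own highest value throughout, with means of 19.92 (saline), 19.88 (iCM) and 19.93 (iCM-Ex). Its direction therefore only follows the top of the scale. The mean signal of the 8 lay between 14.50 and 16.30 on the saline arrays. On the iCM arrays it lay between 13.17 and 15.64, and on the iCM-Ex arrays between 15.59 and 16.32, so each pair of groups overlapped. Macrophage markers were higher for iCM-Ex against saline in 7 of 7, by a median of 1.18, and their mean spanned 10.96 to 11.30 against 7.93 to 11.40. Against iCM 6 of the 7 were higher in iCM-Ex, by a median of 1.74 (7 and 2.30 without iCM replicate 2). Their mean on the iCM arrays was 8.45 to 9.92, below that of every iCM-Ex array. Cardiomyocyte markers were lower for iCM-Ex against saline in 7 of 10, by a median difference of −0.92. Nppa, among the 10, was likewise at the highest value of each saline and iCM-Ex array. For iCM against saline 8 of 10 were lower, with a median of −0.076, which became 3 of 10 and 0.18 without iCM replicate 2. In these comparisons 0 markers of the 3 types passed limma's test, with at most 4 of a type at an unadjusted p below 0.05 in a comparison. Of 7 endothelial markers 0 passed in any comparison. Of 7 smooth muscle markers 1 fell for iCM against saline, where 2.33% of all genes fell, with 3 of the 7 higher and 4 lower. It was Smtn, which fell by 1.52 (adjusted p 0.0498 by limma), a call that held in 1 of 9 fits with 1 array left out. The part of such shifts in the troponin differences was not tested.

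The cardiac troponin T gene Tnnt2, which anchors the complex in heart muscle, had signals of 19.76, 19.80 and 19.76 in saline, 19.48, 18.63 and 19.77 in iCM and 19.76, 19.76 and 19.76 in iCM-Ex. Saline and iCM-Ex arrays were close to each other, and iCM replicates 1 and 2 lay below every other array. Exactly the same value was listed on 5 of the 9 arrays, close to the highest value in the table, 19.93. Of all genes, 687 (3.52%) had the same value on at least 2 arrays. Whether Tnnt2 signals were limited by the upper end of the scale was not tested. The change was −0.48 ± 0.31 for iCM against saline (adjusted p 0.422 by limma), with a 95% interval of −1.17 to 0.22, and −0.15 without iCM replicate 2. The iCM-Ex difference from saline was −0.012, with an interval of −0.71 to 0.68.

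Tnni3 encodes the cardiac troponin I that protein kinase A phosphorylates when the heart is stimulated by adrenaline. Its signals were 16.37, 16.57 and 15.21 in saline, 15.97, 13.01 and 16.96 in iCM and 16.61, 17.08 and 17.98 in iCM-Ex. The iCM-Ex arrays all lay above the saline arrays, by a gap of 0.035, and the iCM arrays spread on both sides of saline. The lowest of the 9 values was that of iCM replicate 2. Tnni3 differed by 1.17 ± 0.86 between iCM-Ex and saline (95% interval −0.73 to 3.07, adjusted p 0.571 by limma), which did not pass. The difference between iCM and saline was −0.74 ± 0.86 (adjusted p 0.674) and turned to 0.41 without iCM replicate 2. Against iCM the iCM-Ex signal was 1.91 ± 0.86 higher, at an unadjusted p of 0.0496 and an adjusted p of 0.344, and 0.76 higher without iCM replicate 2. Tnnt1, its neighbour on the chromosome, was low on the saline arrays alone, so the pair did not order the arrays in the same way. Their correlation (Pearson's r) was −0.16 over the 9 arrays and 0.56 over the 8 without iCM replicate 2.

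Tnnc1, the calcium-binding subunit of heart and slow fibres, had signals of 17.71, 17.31 and 16.17 in saline, 17.71, 18.58 and 19.54 in iCM and 17.12, 17.76 and 17.76 in iCM-Ex. The highest saline value was equal to the lowest iCM value, and iCM replicates 2 and 3 had the highest signals of all arrays. The change was 1.55 ± 0.51 for iCM against saline, with a 95% interval of 0.41 to 2.68 before adjustment and an adjusted p of 0.119 by limma. It was 1.56 without iCM replicate 2 (adjusted p 0.242), so that array did not set its size. The iCM-Ex change from saline was 0.49 ± 0.51 (adjusted p 0.710), and for iCM-Ex against iCM it was −1.06 ± 0.51 (adjusted p 0.385).

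The slow skeletal and fetal troponin I gene Tnni1 had signals of 4.47, 3.97 and 3.45 in saline, 3.69, 4.69 and 3.77 in iCM and 3.80, 3.74 and 3.10 in iCM-Ex. Its mean lay below the median negative control in all 3 groups, so its signal was at the level of background on these arrays. Differences were 0.085 ± 0.38 for iCM and −0.42 ± 0.38 for iCM-Ex against saline, with adjusted p-values of 0.927 and 0.659 by limma. The sign of the first turned under quantile normalisation (−0.10) and median centring (−0.042), and it has no settled direction. The rise of the slow troponin T gene was thus not accompanied by a detectable signal of the slow troponin I gene.

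**Figure D2:**
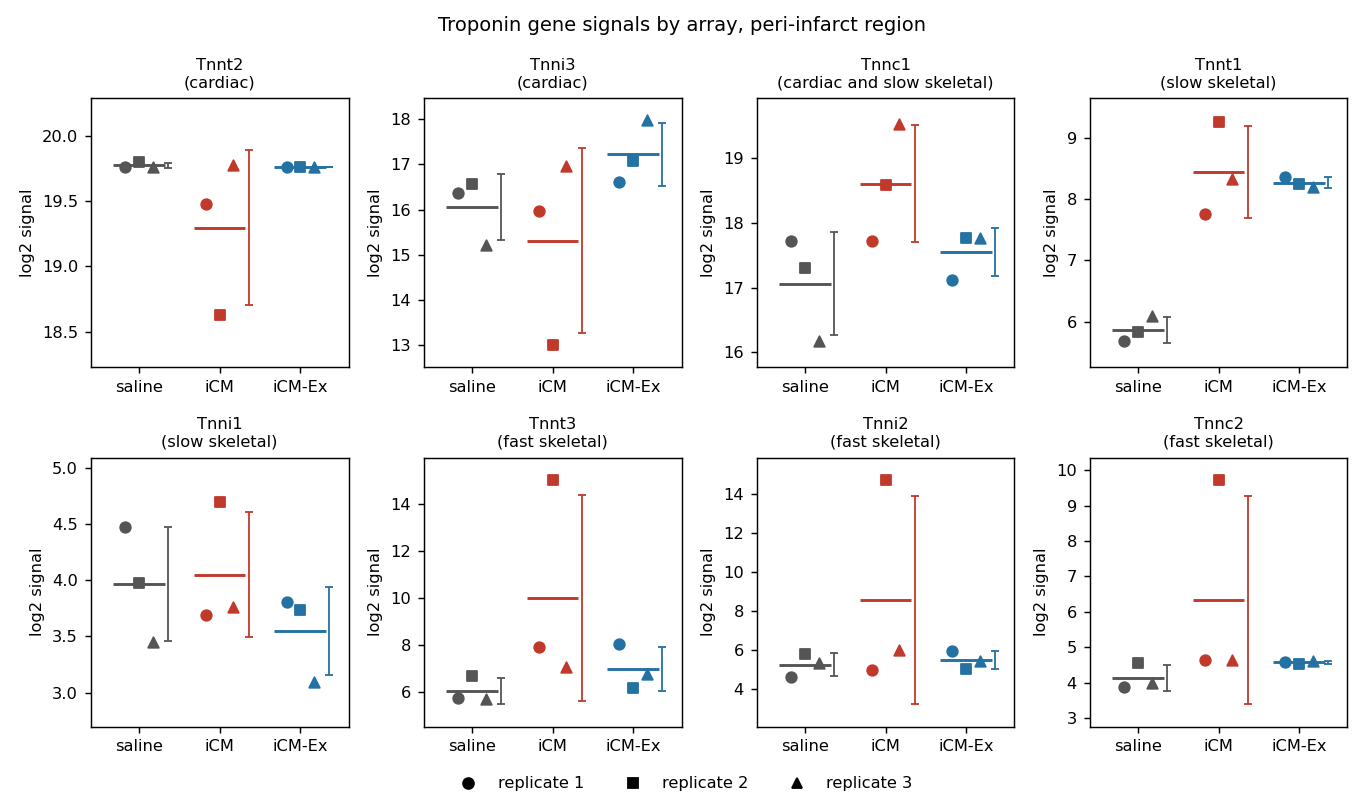
Log2 signal of the 8 troponin genes (y axis, a separate scale in each panel) in saline, iCM and iCM-Ex hearts (x axis), with 1 point per array, its shape giving the replicate number, the group mean as a horizontal line and the SD as a bar. Tnnt1 is the gene whose saline values, 5.68 to 6.10, lie apart from both treated groups, and the 3 fast skeletal genes each have 1 high point, iCM replicate 2.

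The 3 fast skeletal genes were bright on iCM replicate 2 and lay between 3.87 and 8.01 on the other 8 arrays. Tnnt3, the fast troponin T gene, had signals of 5.72, 6.69 and 5.69 in saline, 7.89, 15.00 and 7.03 in iCM and 8.01, 6.17 and 6.74 in iCM-Ex. Tnni2, the fast troponin I gene, had 4.59, 5.77 and 5.33 in saline, 4.94, 14.72 and 6.004 in iCM and 5.94, 5.02 and 5.40 in iCM-Ex. Tnnc2, the fast troponin C gene, had 3.87, 4.54 and 3.98 in saline, 4.63, 9.72 and 4.63 in iCM and 4.58, 4.53 and 4.61 in iCM-Ex. On iCM replicate 2 all 3 genes thus exceeded every other array by several log2 units. The fast myosin gene Myh4 was at 15.77 and the perinatal myosin gene Myh8 at 17.47 on that array, against at most 5.03 and 7.01 on the others. Myh8 was picked from a list of 9 embryonic and regenerating skeletal muscle genes, of which 2 had their highest value on that array. Other genes of that list, Myh3, Myod1, Myog and Pax7, were dim there, at 4.66, 2.99, 5.44 and 4.11.

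None of the fast troponin genes passed the test. For iCM against saline the changes were 3.95 ± 1.64 for Tnnt3, 3.33 ± 1.97 for Tnni2 and 2.20 ± 1.09 for Tnnc2, with adjusted p-values of 0.208, 0.374 and 0.290 by limma. Without iCM replicate 2 they were 1.43, 0.24 and 0.50, with adjusted p-values of 0.254, 0.849 and 0.461. All 3 arrays of iCM lay above saline for Tnnt3 and Tnnc2, by gaps of 0.34 and 0.088, but not for Tnni2. Between iCM-Ex and saline the differences were 0.94 ± 1.64, 0.22 ± 1.97 and 0.44 ± 1.09, with adjusted p-values of 0.836, 0.973 and 0.886. These SEs pool the spread of all 3 groups, so iCM replicate 2 widens them although it is in neither group compared. The SDs were 0.57, 0.60 and 0.36 in saline, 0.94, 0.46 and 0.041 in iCM-Ex, and 4.38, 5.36 and 2.94 in iCM. Without that array the Tnnt3 adjusted p was 0.420 by limma, and none of the 3 genes passed in any fit with 1 array left out. Against iCM the iCM-Ex differences were −3.00, −3.10 and −1.75, and −0.49, −0.020 and −0.057 without iCM replicate 2. The part of skeletal muscle cells in these values was not tested.

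**Figure D3:**
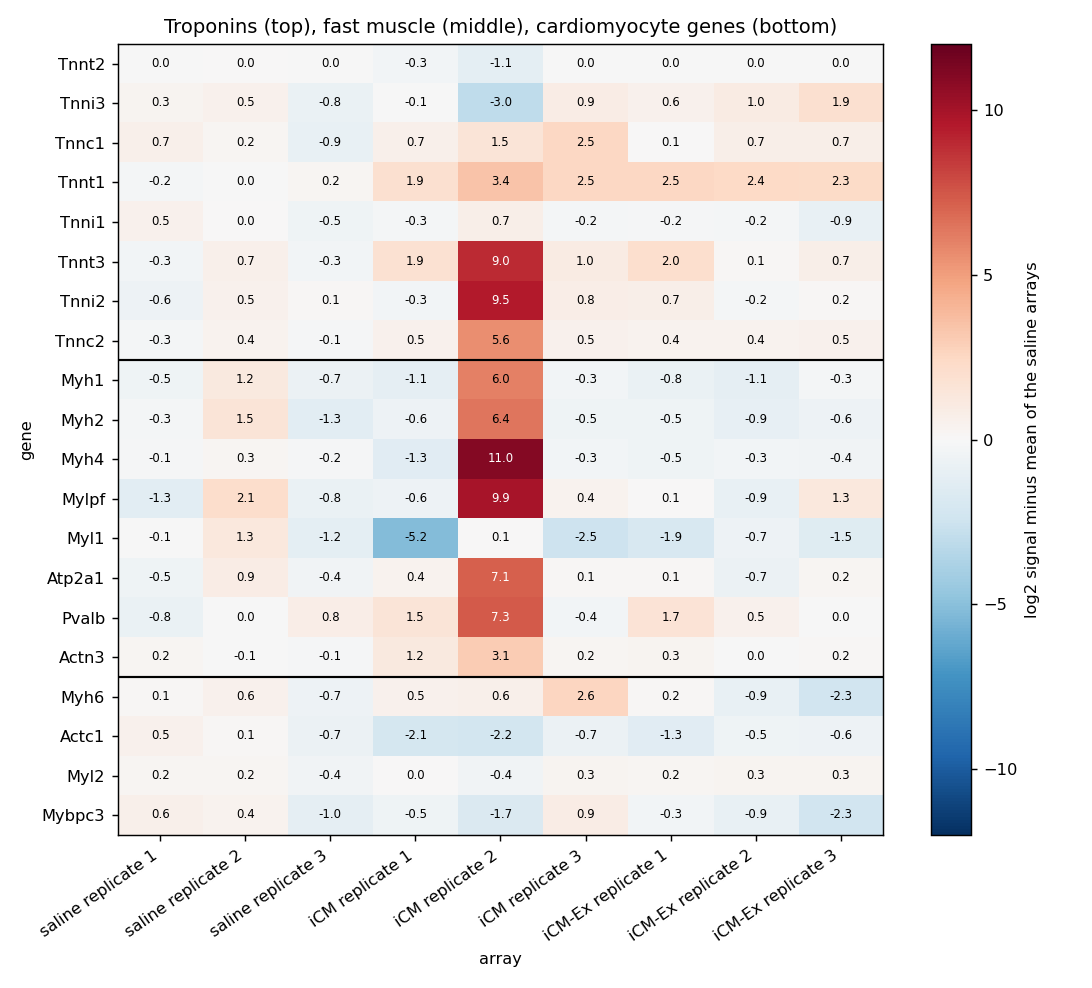
Difference of the log2 signal from the mean of the 3 saline arrays (colour and printed number) for the 8 troponin genes, 8 fast skeletal muscle markers and 4 cardiomyocyte genes (y axis) on each of the 9 arrays (x axis). Tnnt3, Tnni2 and Tnnc2 share their high values with Myh4, Mylpf, Atp2a1 and Pvalb on iCM replicate 2, while Tnnt1 is raised on all 6 treated arrays.

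Across the 8 troponin genes the median change was 1.87 for iCM against saline, where it was 0.080 over all genes, with 6 genes higher and 2 lower. Without iCM replicate 2 it was 0.46 against 0.073, again with 6 higher and 2 lower. For iCM-Ex against saline the median was 0.46 against 0.044 over all genes, likewise with 6 higher and 2 lower. Between iCM-Ex and iCM it was −0.78 against −0.044, with 2 higher and 6 lower, and 0 of the 8 passed limma's test where 1.07% of all genes did. Tnni3 alone had an unadjusted p below 0.05. Without iCM replicate 2 that median was −0.039 against −0.034 over all genes, with 3 higher and 5 lower, so the lower iCM-Ex median rested on that array. Groups did not overlap for 3 troponin genes in iCM against saline (Tnnt1, Tnnt3 and Tnnc2, all higher), where 13.8% of all genes were higher without overlap. In iCM-Ex against saline 2 genes did not overlap (Tnnt1 and Tnni3, both higher) against 12.2% of all genes. In iCM-Ex against iCM it was 1 gene (Tnnc2, lower, by a gap of 0.018) against 10% of all genes. A moderated F test over the 3 groups together called Tnnt1 (adjusted p 0.0128 by limma) and none of the other 7, where 3.32% of all genes were called. The Tnnt1 call of the F test was lost without saline replicate 2.

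**Figure D4:**
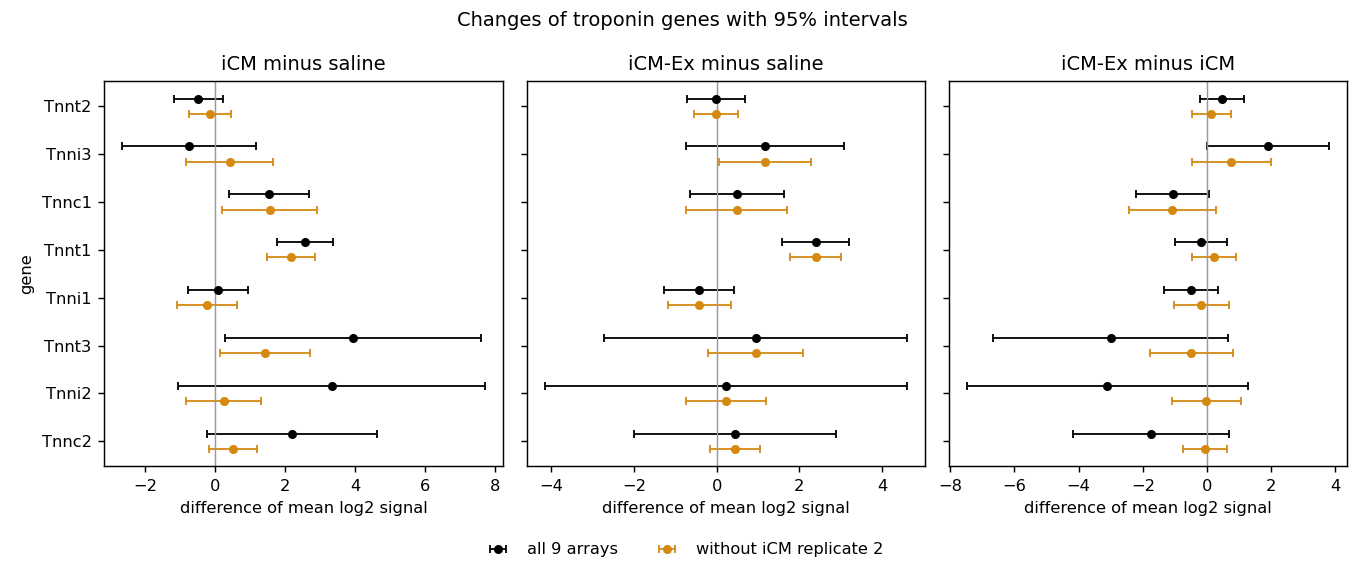
Difference of mean log2 signal (x axis) with its 95% interval for each troponin gene (y axis) in the 3 comparisons, from all 9 arrays (black) and without iCM replicate 2 (orange). Tnnt1 is the gene whose interval lies clear of 0 against saline in both treated groups, at 1.76 to 3.38 and 1.59 to 3.20, and the intervals of Tnnt3, Tnni2 and Tnnc2 narrow when iCM replicate 2 is left out.

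Differences between isoforms within an array remove whatever is common to both genes on it, and they are given here as changes from their saline mean with no test. The difference between slow and cardiac troponin T, Tnnt1 minus Tnnt2, was −0.18, −0.059 and 0.24 in saline, 2.18, 4.52 and 2.45 in iCM and 2.50, 2.38 and 2.34 in iCM-Ex. It was higher on all treated arrays, by 3.05 on average in iCM, 2.31 without iCM replicate 2, and by 2.41 in iCM-Ex. Set against cardiac troponin I instead, Tnnt1 minus Tnni3 was −0.51, −0.56 and 1.06 in saline and 1.94, 1.34 and 0.40 in iCM-Ex. The iCM-Ex arrays thus overlapped saline, with a mean change of 1.22. In iCM this difference was higher on all arrays, by 3.31 on average and 1.76 without iCM replicate 2. For fast against cardiac troponin T, Tnnt3 minus Tnnt2, the mean change was 4.42 in iCM, which became 1.58 without iCM replicate 2. Fast against cardiac troponin I, Tnni2 minus Tnni3, differed from saline by 4.07 in iCM and by −0.17 without that array. Slow against cardiac troponin I, Tnni1 minus Tnni3, differed by 0.82 and −0.65, and by −1.59 in iCM-Ex, where all 3 arrays lay below saline. Fast against cardiac troponin C, Tnnc2 minus Tnnc1, differed by 0.65 in iCM and by −1.06 without iCM replicate 2. Since Tnni1 lay below the negative controls and Tnnt2 had the same value on 5 arrays, the differences with Tnni1 mostly repeat Tnni3 with its sign turned, and those with Tnnt2 mostly repeat the skeletal gene.

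The genes whose signals followed each troponin gene most closely over the 9 arrays were ranked by Pearson's r, as a description. For Tnnt1 these were Arl3 (r = 0.988, and 0.997 over the 8 arrays without iCM replicate 2), Eif2b2 (0.973 and 0.968) and Brip1 (0.970 and 0.969). Arl3 is a small GTPase of the primary cilium, Eif2b2 a subunit of a translation initiation factor complex and Brip1 a DNA repair helicase, so none is a sarcomere gene. For Tnnc1 they were Fam124b (0.975 and 0.980), Ndufa5, a subunit of respiratory complex I (0.975 and 0.977), and Timm10, a mitochondrial import chaperone (0.970 and 0.977). These likenesses were as high without the array that stood apart. For Tnni2 they were Tnnc2 (0.989), Myh4 (0.986) and Atp2a1, the fast fibre calcium pump (0.983), which became 0.545, 0.236 and 0.519 without iCM replicate 2. For Tnnc2 they were Tnni2, the brown fat gene Ucp1 (0.988, then 0.452) and Atp2a1 (0.984, then 0.560). For Tnnt3 they were Tnnc2 (0.980, then 0.758), Myoz1 (0.979, then 0.707) and Rtl5 (0.976, then 0.725). The likenesses of the fast genes thus rest largely on that array. For Tnnt2 the closest were Ubqln2 (0.962, then 0.788), Rap1gap2 (0.958, then 0.762) and the heart fatty acid binding protein gene Fabp3 (0.948 and 0.949). Those of Tnni3 were Mrpl24, Rnf187 and Rfesd (0.942, 0.935 and 0.928, then 0.781, 0.752 and 0.776). Those of Tnni1, whose signal was at background, were Col23a1, Ocm and Hmx3 (0.960, 0.934 and 0.925). How the arrays were normalised is not given, so its part in these likenesses cannot be judged, and each gene was picked as among the highest of 19505.

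The partners of troponin on the thin filament did not pass the test. Of 12 measured actin, tropomyosin and filament-end genes, 0 rose and 0 fell in any of the 3 comparisons by limma, while 2, 2 and 1 had an unadjusted p below 0.05 for iCM against saline, iCM-Ex against saline and iCM-Ex against iCM. In each comparison with saline 6 were higher and 6 lower. The median change was 0.046 for iCM (−0.023 without iCM replicate 2) and −0.14 for iCM-Ex against saline, where all genes had 0.080 and 0.044. Tmod1, which caps the pointed end of the thin filament, had means of 13.40 (saline), 11.25 (iCM) and 11.20 (iCM-Ex), with adjusted p-values of 0.0775 and 0.130 against saline. Cardiac actin Actc1 was at 18.17 in saline and 16.51 in iCM (adjusted p 0.0789). Neither gene is therefore called, although both had a smaller p than the other 10 for iCM against saline.

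Of 15 measured genes of the cardiac thick filament and Z-disc, 0 passed in any comparison by limma, and 2, 3 and 4 had an unadjusted p below 0.05, in the same order of comparisons. The medians were −0.010 for iCM (0.22 without iCM replicate 2) and −0.18 for iCM-Ex against saline, and −0.63 between iCM-Ex and iCM. Tcap, which encodes the titin cap protein, had means of 10.01 (saline), 12.90 (iCM) and 10.09 (iCM-Ex), with adjusted p-values of 0.0626 for iCM against saline and 0.107 for iCM-Ex against iCM. Ttn, the gene of the giant spring protein titin, was at 16.86, 17.30 and 14.31, with adjusted p-values of 0.127 for iCM-Ex against saline and 0.0718 against iCM. Myom1, an M-band gene, was at 15.31 in saline and 12.51 in iCM-Ex (adjusted p 0.118).

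The other slow fibre genes did not move with Tnnt1 beyond the test. Of 9 measured, most of them shared with heart, 0 passed in any comparison by limma, and 0 had an unadjusted p below 0.05. Against saline 6 were higher for iCM and 7 for iCM-Ex, with medians of 0.20 (0.29 without iCM replicate 2) and 0.29 where all genes had 0.080 and 0.044. Mybpc1, the slow form of myosin binding protein C, was at 5.03 in saline and 6.56 in iCM (adjusted p 0.274), a difference of 1.53 that was 0.63 without iCM replicate 2. The calcium pump gene of heart and slow fibres, Atp2a2, was at 19.32 in saline and 18.56 in iCM-Ex (adjusted p 0.551). Of the 8 genes of the fetal heart programme, 0 passed against saline (1 for iCM and 2 for iCM-Ex with an unadjusted p below 0.05) and 1 rose between iCM-Ex and iCM, where 0.795% of all genes rose. That gene was Nppb, which encodes the natriuretic peptide released by strained myocardium, at 14.24 in iCM and 17.42 in iCM-Ex. Its change was 3.19 ± 0.40 (adjusted p 0.0126 by limma), and 2.80 without iCM replicate 2 (adjusted p 0.0256). The Nppb call was lost without iCM-Ex replicate 2 or 3, with adjusted p-values of up to 0.0919.

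Of 12 skeletal muscle genes outside troponin, listed for fast fibres but not all particular to them, 1 rose for iCM against saline, where 1.34% of all genes rose. These 12 include the 8 fast skeletal muscle markers given earlier, so their values partly repeat those of the markers. Of the 12, 10 had their highest value on iCM replicate 2. The mean of the 12 on that array was 11.11, against 5.56 to 6.92 on the other 8. Their median change was 1.58 for iCM against saline and −0.34 without that array, when 5 were higher and 7 lower. It was −0.27 for iCM-Ex against saline. The gene that rose was Cacna1s, the voltage sensor of skeletal muscle, with signals of 4.43, 4.58 and 4.29 in saline and 6.0002, 6.75 and 5.40 in iCM. Its change was 1.61 ± 0.37 (adjusted p 0.0409 by limma), but it was called in only 2 of 9 fits with 1 array left out, the fit lacking iCM replicate 3 and the fit lacking iCM-Ex replicate 1. It was 1.26 without iCM replicate 2, at an adjusted p of 0.118. On the iCM-Ex arrays Cacna1s was at 6.05, 5.51 and 5.29, a change of 1.18 from saline (adjusted p 0.171 by limma). Like Tnnt1, it lay higher on all treated arrays than on any saline array, as did 6.14% of all genes. Its saline mean of 4.44 was below the negative controls, so the size of the difference is uncertain. Of 9 embryonic and regenerating skeletal muscle genes, all with a saline mean below the negative controls, 0 passed in any comparison by limma, and 1, 1 and 0 had an unadjusted p below 0.05. The muscle stem cell gene Pax7 was at 3.44 in saline and 4.28 in iCM (adjusted p 0.161), and Myog, a gene of differentiating myoblasts, at 4.92 in saline and 5.62 in iCM-Ex (adjusted p 0.297).

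Among 17 measured kinase, phosphatase and related genes that act on troponin I or share its regulators, 2 fell for iCM against saline, where 2.33% of all genes fell, and 0 rose. They were Prkar1a, a regulatory subunit of protein kinase A, with means of 15.51 in saline and 13.89 in iCM, and Ppp1cc, a catalytic subunit of protein phosphatase 1, with 14.04 and 12.29. Prkar1a fell by 1.62 ± 0.30 (adjusted p 0.0214 by limma) and Ppp1cc fell by 1.74 ± 0.34 (adjusted p 0.0254). Without iCM replicate 2 the changes were −1.44 and −1.51, and neither passed (0.0747 and 0.0877). The calls were also lost without saline replicate 2 or 3 for both genes, and without iCM replicate 1 for Ppp1cc. In iCM-Ex against saline 12 of the 17 were lower and 0 passed by limma, with 3 at an unadjusted p below 0.05.

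Among 19 measured transcription factor genes known to act on troponin or sarcomere genes, 2 fell for iCM against saline and 0 rose, where 2.33% and 1.34% of all genes did. Gata4, a master regulator of heart muscle genes, was at 12.02, 11.70 and 11.23 in saline, 10.29, 7.94 and 9.59 in iCM and 9.38, 10.15 and 9.36 in iCM-Ex. It fell by 2.38 ± 0.54 for iCM (adjusted p 0.0408 by limma), and the iCM-Ex difference was −2.02 (adjusted p 0.124). Mef2a, a factor that binds the MEF2 site, was at 15.81, 14.82 and 14.66 in saline and 13.83, 11.91 and 13.35 in iCM, and fell by 2.07 ± 0.49 (adjusted p 0.0475). The calls of Gata4 and Mef2a held in 1 of 9 fits with 1 array left out, the fit lacking iCM replicate 1, and with iCM replicate 2 left out the changes were −1.71 and −1.51 (adjusted p 0.0803 and 0.114). Prox1, a repressor of fast fibre genes in slow fibres and a regulator of cardiac sarcomere assembly, was at 10.84, 9.82 and 8.77 in saline and 6.75, 7.59 and 7.14 in iCM-Ex, where its adjusted p was 0.0754. The median change of the 19 genes was −0.26 for iCM (−0.14 without iCM replicate 2) and −0.42 for iCM-Ex against saline, and 8 of them had their lowest value on iCM replicate 2.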

How the data were processed

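Total RNA was measured on 9 Clariom S arrays, 3 per group, with 5.5 µg of labelled cDNA each per the labels' protocols. Each probe set has 1 deposited log2 signal per array, for which the submitters' processing notes name Affymetrix Expression Console. How background was corrected and arrays were normalised is not given in the sources used here, so an effect of either on levels near background or near the top of the scale cannot be judged. Of 28846 rows, 6640 were controls and 19572 carried 1 gene symbol in the platform annotation, which gave 19505 genes. A limma 3.58.1 fit (R 4.3.3) with 1 mean per group on all 9 arrays, moderated by empirical Bayes, gave two-sided tests, adjusted by Benjamini-Hochberg over all genes. Every SE and interval from it pools the spread of all 3 groups, iCM replicate 2 included, whichever groups are compared. The troponin genes and the gene lists were chosen with earlier results of these data known. Named genes were the 8 troponin genes, up to 4 called genes of each list and comparison or otherwise the 2 with the smallest p (a selection of these is printed), and the 3 genes most correlated with each troponin gene, without predicted genes and olfactory or vomeronasal receptors. Genes shown by array beside them (Myh8, Mylpf, Pvalb and the 4 cardiomyocyte genes of the plot by array) were picked from the lists after their values were seen. Medians of gene lists without iCM replicate 2, with no test, were added after the data were seen. The alternatives, among them each array left out, other normalisations and control separation as a covariate, are reported in the closing section. In simulated data with the real genes' spread, 76% of changes of 2 log2 units were recovered for iCM against saline and 62% for iCM-Ex against saline. Both comparisons were simulated with the same spread and number of arrays, so the shares differ by the random draw. They show no difference in power between the comparisons. The simulated arrays varied independently, and none stood apart as iCM replicate 2 did, so these shares need not hold for the real arrays.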

Additional observations from a re-analysis of the deposited data

How the results depend on the processing

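Of 450 recomputed values for the 8 troponin genes in the 3 comparisons, 410 kept their direction and their side of the threshold, 13 kept the direction but lost the call, all of Tnnt1, and 27 changed sign, none of them a called value. The count of called troponin genes for iCM against saline, 1 with all arrays, was 0 without the 3 arrays with markers of lung, muscle or fat and 0 with control separation added as covariate, but 1 in every fit with 1 array left out. For iCM-Ex against saline the count of 1 was 0 without those 3 arrays, with the covariate, with an intensity trend in the prior variance (Tnnt1 adjusted p 0.0578 by limma) and with only the 2 groups compared (0.0715), and ranged from 0 to 1 with 1 array left out. The F test called 0 without the 3 arrays and 0 to 1 with 1 array left out. Between iCM-Ex and iCM the count was 0 in every setting.

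Deviations from the group mean correlated at −0.26 to 0.068 between same-numbered arrays. Arrays with different numbers were not compared in this way, so whether the replicate numbers pair the arrays was not settled. With the replicate number as a block, Tnnt1 had an adjusted p of 0.0275 for iCM and 0.0816 for iCM-Ex against saline, so the count for iCM-Ex was 0 under the block, and the block changed no other call of a troponin gene.

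With the covariate, the sign changed for iCM against saline to 0.0081 for Tnnt2, −0.054 for Tnnt3, −0.50 for Tnni1, −1.31 for Tnni2, 0.78 for Tnni3 and −0.29 for Tnnc2, and for iCM-Ex against iCM to 0.77 for Tnnt1, −0.35 for Tnnt2, 3.68 for Tnnt3, 0.46 for Tnni1, 4.64 for Tnni2, −0.63 for Tnni3 and 2.41 for Tnnc2. Without the 3 arrays, it changed to −0.20 for Tnni1 and 0.90 for Tnni3 (iCM against saline) and to −0.011 for Tnnt2, 0.064 for Tnnt3, 0.0061 for Tnni1 and −0.11 for Tnni3 (iCM-Ex against iCM). Tnni1 for iCM against saline was −0.10 after quantile normalisation and −0.042 after median centring. With 1 array left out, sign changes occurred for Tnni1 (−0.24 to 0.34) and Tnni3 (−1.56 to 0.41) for iCM against saline, Tnni2 for iCM-Ex against saline (−0.098 to 0.50) and Tnnt1 for iCM-Ex against iCM (−0.52 to 0.23). The cause was not tested. The filter on dim genes left 6 troponin genes, without Tnni1 and Tnnc2.

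Over all genes, the calls for iCM against saline numbered 716, but 126 without saline replicate 2, 196 without iCM replicate 2 and 33 with the covariate. For iCM-Ex against saline they numbered 68, but 0 without saline replicate 2 and 163 without saline replicate 3. The number of arrays and signals near the negative controls limit Tnni1, Tnni2 and Tnnc2, and the top of the scale may limit Tnnt2.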
